A study of Mus musculus with 66 samples.

Results

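The unfolded protein response and the chaperones of the endoplasmic reticulum (ER) were followed through 10 genes, Hspa5, Hsp90b1, Pdia4, Dnajb9, Sdf2l1, Ern2, Xbp1, Atf4, Ddit3 and Creb3l1, taken by symbol from the 30452 genes of the deposited abundance table. All 10 were measured. Values are TPM, the number of transcripts in each 1000000 transcripts of the library, corrected for transcript length and summed over the transcripts of each gene.

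The study used C57Bl/6 mice purchased when 6 weeks old. Mice sampled at day 6 or later drank 3% dextran sodium sulfate (DSS) for 6 days from day 0. Those of day 3 were sampled during this course, and those of day 0 had received no DSS. DSS is a polymer that injures the colonic epithelium and causes colitis. Uninjured mice at day 0 (4 mice, numbered 1 to 4) were compared with mice at day 3 (mice 5 to 7), day 6 (mice 8 to 10), day 9 (mice 11 to 13), day 14 (mice 14 to 16) and day 20 (mice 17 to 19). Mid-colon, rectum and anus were taken from each of the 19 mice, and a squamous neo-epithelium from the 9 mice sampled at days 9, 14 and 20, which makes 66 samples in 21 groups. The muscle layer had been removed and RNA of the whole remaining tissue was sequenced. No genetic change is named for any group, and no vehicle or second injury model stands beside DSS.

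The ER folds the proteins that a cell secretes or puts on its surface. When unfolded protein gathers there, membrane sensors of the Ern, Eif2ak3 and Atf6 kinds start the unfolded protein response: Ern1 and its mucosal relative Ern2 splice the RNA of Xbp1, Eif2ak3 slows translation and lets Atf4 be made, and Atf6 is cut to free a transcription factor. The intestine depends on these genes because goblet cells fold large amounts of the mucin Muc2 and plasma cells fold antibody. Much of the response acts by splicing, translation and protein cleavage, which a level of RNA does not show.

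A promoter sequence known to answer this response is the ER stress element, a CCAAT box followed after a fixed gap by CCACG. RefSeq promoters of build GRCm38.p6, from 250 bases before to 50 bases after the transcription start, were found for 8 of the 10 genes, and were searched on both strands for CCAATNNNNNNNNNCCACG. The promoters of Hspa5 and Hsp90b1 held it, and 37 of all 32851 promoters (0.113%) did. With at most 1 of the 10 fixed letters different, Pdia4 and Ddit3 also matched, so that 4 of 8 promoters held it, against 432 of all promoters (1.32%). These 4 windows are printed because they hold every match among the 8 genes searched. Each is read 5′ to 3′ on the gene's own strand, with 5 bases on either side, and the capitals mark the matches.
Hspa5, chr2:34772020-34772048, plus strand: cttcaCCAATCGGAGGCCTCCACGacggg
Hsp90b1, chr10:86705528-86705661, minus strand: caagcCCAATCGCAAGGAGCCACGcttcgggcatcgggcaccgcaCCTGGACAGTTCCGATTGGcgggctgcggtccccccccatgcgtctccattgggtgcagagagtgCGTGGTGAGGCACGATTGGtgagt
Pdia4, chr6:47813597-47813625, minus strand: aaccgAGTGGCAGCCCGTGATTGGtggtc
Ddit3, chr10:127290697-127290725, plus strand: gccagCGTGCCGCTTTCTGATTGGtaggc
The match of Hspa5 lay 65 to 47 bases before the RefSeq start and is a full one. Hsp90b1 held 3 matches, of which the first and the last are full and the one between them has 1 letter different. The matches of Pdia4 and Ddit3 have 1 letter different and lie on the opposite strand to the gene, so that the motif reads there as its reverse complement. The shorter motifs ATTGGNCCACG, TGACGTGG and TTGCATCA, known as targets of Atf6 with NF-Y, of Xbp1 and of Atf4 with C/EBP factors, were in 0 of the 8 promoters and in 0.0304%, 0.563% and 0.791% of all promoters. A match is a run of letters and no measurement of binding.

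In GENCODE M21 on the same assembly, Hspa5 spans 34771970 to 34777547 on chromosome 2, Hsp90b1 86690209 to 86705509 on chromosome 10, Pdia4 47796141 to 47813430 on chromosome 6 and Dnajb9 44205559 to 44210326 on chromosome 12. Sdf2l1 spans 17130138 to 17132383 on chromosome 16, Ern2 122169893 to 122186207 on chromosome 7 and Xbp1 5520659 to 5525893 on chromosome 11. Atf4 spans 80255184 to 80257541 on chromosome 15, Ddit3 127290774 to 127296288 on chromosome 10 and Creb3l1 91982328 to 92024502 on chromosome 2. Every value below is summed over all annotated transcripts of the gene. The starts that RefSeq gives for Hspa5, Hsp90b1 and Ddit3 lie inside the spans that GENCODE gives them, and that of Pdia4 lies outside. The printed match of Hspa5 also lies inside its GENCODE span.

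Sequencing depth cannot be read from TPM, and no counting interval is given. Between 11268 and 13789 genes reached 1 TPM in a sample, mitochondrial transcripts took 6.26% to 28.5% of the total, and the 10 genes together took 0.0495% to 0.171%. Differences were tested with limma on log2(TPM + 1), and a gene was called at a Benjamini-Hochberg adjusted p under 0.05 over all genes tested in that comparison. A log2 difference on this scale understates the change of genes near 1 TPM. Each section's later days share the same 4 samples of day 0, so these comparisons are not independent of each other. The p-values measure the spread between mice of 1 experiment. Of 236 pairs of gene and comparison that could be tested, 52 were called, and 12 of the 24 comparisons called none of the 10.

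Mouse 4 stood apart at day 0 in more than 1 section. Its anal sample held 2527 TPM of 8 goblet cell markers in sum, against 733 to 1161 in mice 1 to 3, and its mid-colon held the lowest Hspa5, Ern2 and Creb3l1 of that group. Mitochondrial transcripts took 20.8% of its mid-colon sample, against 16.4% to 17.8% in mice 1 to 3. They took 12.3% of its anal sample, against 6.26% to 11.7%. Calls that were gained or lost without its samples are given beside each count. Shares of all genes called are from fits with all mice.

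In uninjured mice the 10 genes stood at similar levels in rectum and mid-colon and were mostly lower in the anus, the section that holds squamous epithelium. Hspa5, which encodes BiP, the Hsp70-type chaperone of the ER lumen that also holds the sensors inactive, was the most abundant of them. Its level in the rectum at day 0 was 280.2, 248, 334 and 246 TPM in mice 1 to 4, and in the anus it was 147, 149.8, 151 and 209 TPM. The anal samples all lay below the rectal ones. The coding transcript Hspa5-202 stood at 138 ± 16.7 TPM in the anus and 169 ± 6.83 TPM in the rectum (mean ± SD, n = 4 and 4). A fragment annotated as a retained intron, Hspa5-203, stood at 23.1 ± 26.0 and 99.5 ± 37.0 TPM. The summed difference is therefore not that of the coding transcript alone.

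Of the 10 genes, 8 were lower and 1 was higher in the anus than in the rectum at day 0, in a comparison where 60.3% of all tested genes were called in one direction or the other. Among the chaperones, the largest difference was that of Dnajb9, a J-domain partner of BiP also known as ERdj4, at -1.43 ± 0.19 on the log2 scale (SE; limma adjusted p = 1.79e-04). Dnajb9 stood at 27.4, 31.9, 27.4 and 29.9 TPM in the rectum and at 8.05, 7.84, 11.7 and 14.5 TPM in the anus. The other chaperones Hspa5, Hsp90b1, Pdia4 and Sdf2l1 differed by -0.54 to -0.80. Ern2 differed by -2.28 ± 0.38 and Creb3l1 by -1.80 ± 0.25, which were the largest of all 10. Xbp1 (-0.28, adjusted p = 0.0457) and Atf4 (0.28, adjusted p = 0.0453) were the smallest that were called, but neither passed once mouse was added as a replicate block (adjusted p = 0.13 and 0.131 in limma), which left 7 lower and 0 higher. With the libraries rescaled by trimmed means of M-values (TMM), Xbp1 was not called (adjusted p = 0.419) and Ddit3 was called higher (0.35, adjusted p = 0.0207). Atf4 lost its call without mouse 2, 3 or 4, and Pdia4 and Xbp1 lost theirs without mouse 1, 2 or 3. All 6 squamous epithelium markers were higher and all 8 goblet cell and all 6 colonocyte markers lower in the anus, and 5 of 6 fibroblast markers were higher. Although the muscle layer had been removed, 6 skeletal muscle markers summed to 1781 to 17996 TPM in the anus and 12.7 to 38.02 TPM in the rectum, and the part of such cells in the difference was not tested. In bulk tissue, fewer cells of a type and less RNA per cell cannot be told apart.

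Between rectum and mid-colon at day 0, limma called none of the 10 genes, against 1.79% of all genes tested. An unadjusted p under 0.05 was reached by 2805 of all 12037 genes and by 1 of the 10. That gene was Atf4, at 0.25 ± 0.09 on the log2 scale (adjusted p = 0.16), and TMM rescaling called none either. The differences of the other 9 genes lay between -0.10 and 0.34, with standard errors of 0.11 to 0.37.

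**Figure D1:**
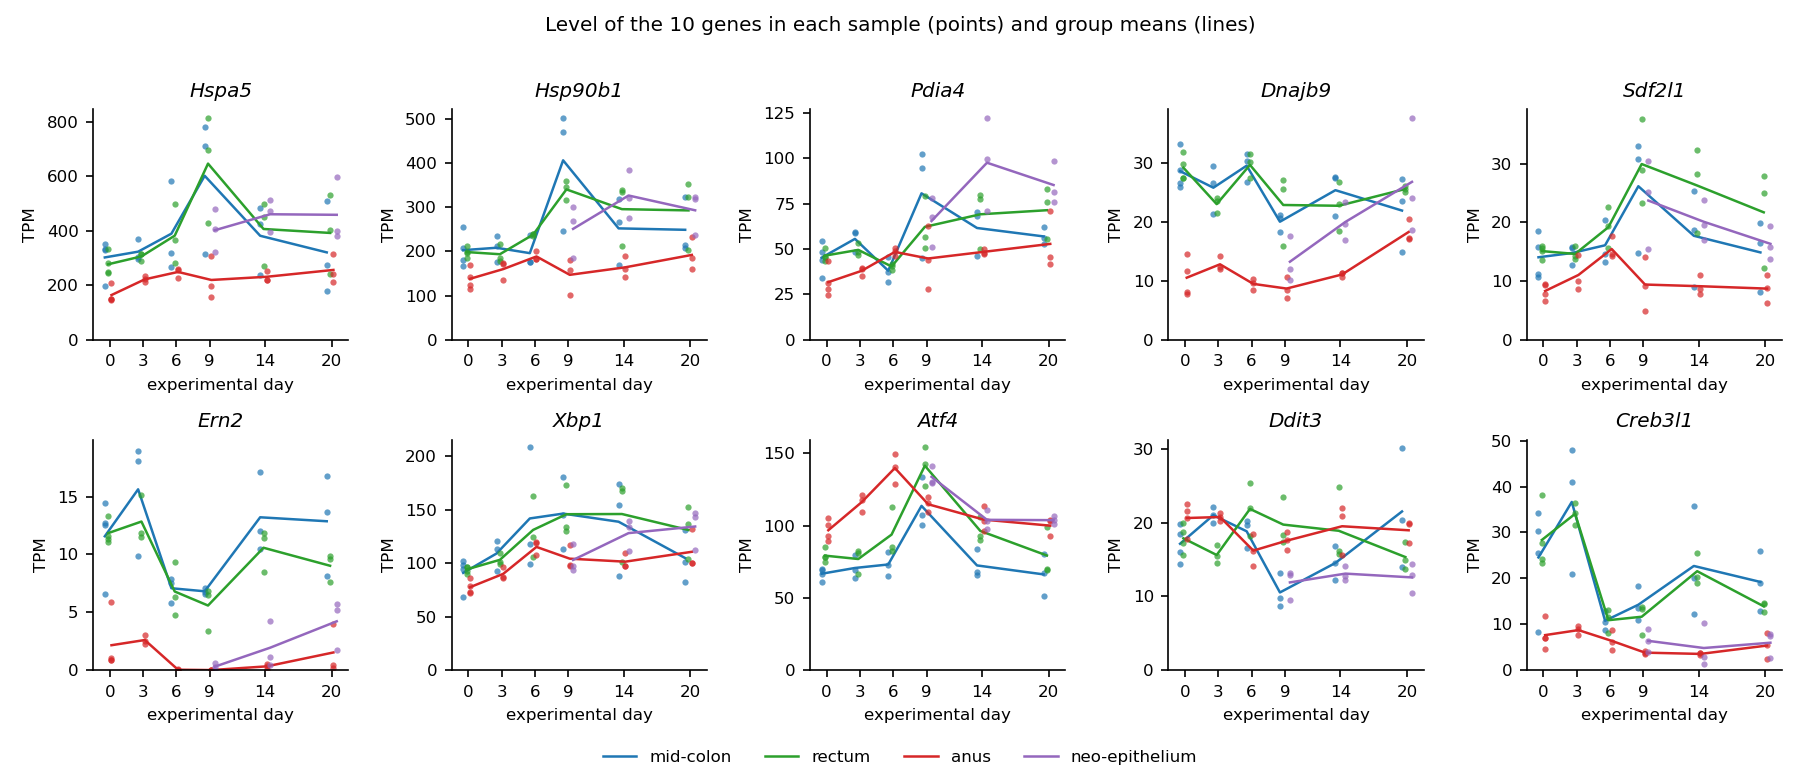
Level of each of the 10 genes in TPM (vertical axis, linear, from 0) against the experimental day (horizontal axis), with 1 point per sample and lines through the group means of mid-colon, rectum, anus and squamous neo-epithelium. Hspa5 and Hsp90b1 peak at day 9 in rectum and mid-colon, Ern2 and Creb3l1 are lowest there at days 6 and 9, and the anus lies below the other sections for most genes at day 0.

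At day 3 of DSS none of the 10 genes was called in any section. Of all genes tested, 0.375% were called in the mid-colon at day 3, 6.62% in the rectum and 0.044% in the anus. TMM rescaling called none of the 10. An unadjusted p under 0.05 was reached by 1304 of all 12008 genes in the mid-colon, 2515 of 12348 in the rectum and 615 of 13639 in the anus. Of the 10 genes, 0 reached it in the mid-colon, 1 in the rectum and 1 in the anus. Dnajb9 in the rectum, at -0.33 ± 0.09 (adjusted p = 0.0769), and Hspa5 in the anus, at 0.45 ± 0.16 (adjusted p = 0.914), were those genes.

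At day 9, 3 days after DSS ended, the main chaperones of the ER rose in the rectum. Hspa5 stood at 429.7, 697 and 812 TPM in mice 11 to 13, against 246 to 334 TPM at day 0, and the groups did not overlap. The log2 difference was 1.18 ± 0.22 (SE; adjusted p = 0.00174), a 2.27-fold rise on the TPM + 1 scale. Hsp90b1, which encodes GRP94, the Hsp90-type chaperone of the ER that folds Toll-like receptors and integrins, rose from 199, 186, 196 and 213 TPM to 317, 359 and 345 TPM. Its difference was 0.77 ± 0.09 (adjusted p = 1.93e-04), the most precise of the chaperones.

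Sdf2l1, a protein of the ER lumen that works with J-domain partners of BiP, rose in the rectum as well. It went from 15.6, 15.2, 15.9 and 13.7 TPM to 23.3, 28.9 and 37.6 TPM at day 9 (0.92 ± 0.16, adjusted p = 0.00157). Every sample of day 9 lay above every one of day 0 for Hspa5, Hsp90b1 and Sdf2l1. Pdia4, a disulfide isomerase also known as ERp72, stood at 50.8, 56.7 and 79.4 TPM against 43.5 to 50.8 TPM and was not called (0.39 ± 0.16, adjusted p = 0.0625). Dnajb9 stood at 27.1, 15.9 and 25.5 TPM at day 9 and at 27.4 to 31.9 TPM at day 0. Its difference of -0.37 ± 0.18 had the opposite sign to that of the other chaperones and was not called (adjusted p = 0.118), while TMM rescaling called it lower (-0.53, adjusted p = 0.0129).

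In all, 5 of the 10 genes were higher and 2 lower in the rectum at day 9, where 53.5% of all tested genes were called. The share of the 10 called was thus not far from that of the whole table. Their median difference was 0.50 on the log2 scale, beside 0.13 over all genes tested. Leaving out any one of the 7 mice kept all 7 calls. Neutrophil markers moved with this comparison: their sum over 6 genes went from 0.797 to 5.92 TPM at day 0 to 11103 to 13161 TPM at day 9. All 6 neutrophil, all 6 macrophage and all 6 proliferation markers were higher, and all 6 colonocyte markers were lower. The sum of 6 plasma cell markers was 32.1 to 134 TPM at day 0 and 34.8 to 63 TPM at day 9. What part these cells had in the rise of the chaperones was not tested. Mitochondrial transcripts took 16.3% to 20.0% of the rectal samples at day 0 and 8.05% to 11.6% at day 9. The part of this change was not tested either.

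On TPM as deposited, the earlier course in the rectum was weaker. At day 6, the last day of DSS, Hsp90b1 stood at 239, 235 and 239 TPM, above all 4 samples of day 0 (0.26 ± 0.08, adjusted p = 0.0256). Hspa5, at 281, 366 and 499 TPM, was not called (0.43 ± 0.19, adjusted p = 0.0879). Of the 10 genes 2 were higher and 2 lower, where 48.7% of all tested genes were called. Over all genes tested the median difference at this day was -0.27, which TMM rescaling moved to -0.02. Hsp90b1 lost its call without mouse 1, 2, 3 or 8 and Xbp1 without mouse 1, 2 or 4, while Ern2 and Creb3l1 were called whichever mouse was left out. All 6 macrophage and all 5 tested neutrophil markers were higher at day 6 and all 6 proliferation markers lower (4 lower after TMM rescaling), and their part in these values was not tested. On the TMM scale 6 of the 10 were higher, namely Hspa5, Hsp90b1, Sdf2l1, Xbp1, Atf4 and Ddit3, and Creb3l1 alone was lower. On that scale 4537 of all 12615 genes were called. The count at day 6 depends on the scaling, and so does the order of days 6 and 9. As deposited, the median difference of the 10 genes was 0.24 at day 6 and 0.50 at day 9. After TMM rescaling it was 0.54 at day 6 and 0.34 at day 9.

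From day 6 to day 9 in the rectum, Hsp90b1 (0.51), Pdia4 (0.59) and Atf4 (0.60) were higher and none was lower, where 37.9% of tested genes were called. The median over all genes was 0.37 in this comparison. After TMM rescaling, which moved that median to 0.00, none of the 3 was called (adjusted p = 0.735, 0.508 and 0.498) and Dnajb9 was lower. Without mouse 8, 9 or 13 none of the 10 was called, and without mouse 11 there were 4.

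At day 14 in the rectum, 1 of the 10 genes was called, where 15.8% of all were. Sdf2l1 stood at 18.2, 32.3 and 28.3 TPM, above the 13.7 to 15.9 TPM of day 0 (0.72 ± 0.19, adjusted p = 0.0392). Leaving out mouse 14, whose sample held the lowest Hspa5 (269 TPM) and Hsp90b1 (212 TPM) of the group, brought the count to 6. TMM rescaling brought it to 5, where 2580 of all 12749 genes were called. Leaving out any other mouse of this comparison (1, 2, 3, 4, 15 or 16) brought the count to 0. The 15.8% is of the unscaled fit with all mice. The sample of mouse 14 also stood apart in cell markers. Its plasma cell sum was 79.96 TPM, against 257 and 297 TPM in mice 15 and 16, its neutrophil sum 179 TPM against 1491 and 4615 TPM, and its squamous sum 24.6 TPM against 988 and 702 TPM. Its colonocyte sum, 7670.3 TPM, was the highest, against 3116 and 3449 TPM. Mitochondrial transcripts took 18.4% of that sample, against 11.5% and 13.4% in mice 15 and 16, and their part was not tested. Over the 3 mice 5 of 6 colonocyte markers were lower and all 5 tested neutrophil markers higher than at day 0, and the part of these cells was not tested.

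At day 20 in the rectum, Pdia4 was higher and Creb3l1 was lower, where 7.68% of all tested genes were called. Pdia4 stood at 83, 75.8 and 55.6 TPM against 45.6, 43.5, 50.8 and 45.8 TPM at day 0. All samples of day 20 lay above those of day 0, and the difference of 0.59 ± 0.15 passed narrowly (adjusted p = 0.0497). Without mouse 19, in which Hspa5 was 242 TPM and Hsp90b1 203 TPM, 6 of the 10 genes were called. Without mouse 4 only Creb3l1 was called, and without any of mice 1, 2, 3, 17 or 18 none was. The 7.68% is of the fit with all mice. The plasma cell sum was 1477 and 855 TPM in mice 17 and 18 and 44.96 TPM in mouse 19, high and low in the same samples as Hspa5 and Hsp90b1, and its part in them was not tested. Mitochondrial transcripts took 20.6% of the rectal sample of mouse 19, against 13.6% and 17.2% in mice 17 and 18. Their part was not tested either.

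The mid-colon showed the same chaperones rising at day 9, with a wider spread between mice. Hspa5 stood at 331, 351, 331 and 196 TPM at day 0 and at 316, 710.1 and 779 TPM at day 9, so that mouse 11 lay within the range of day 0 (0.92 ± 0.31, adjusted p = 0.0356). Hsp90b1 stood at 180.5, 208, 255 and 167 TPM and then at 246, 501 and 470.1 TPM (0.95 ± 0.25, adjusted p = 0.0111). Sdf2l1, at 14.7, 32.9 and 30.8 TPM against 10.7 to 18.6 TPM, passed narrowly (0.81 ± 0.30, adjusted p = 0.0496). In each of these 3 genes mouse 11 was low and mice 12 and 13 were high. Mitochondrial transcripts took 19.3% of the mid-colon sample of mouse 11, against 12.1% and 14.5% in mice 12 and 13. Their part was not tested.

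Dnajb9 fell in the mid-colon at day 9. It stood at 20.7, 18.2 and 21.1 TPM against 26.5, 25.9, 33.1 and 28.7 TPM at day 0, without overlap (-0.49 ± 0.16, adjusted p = 0.032). A co-chaperone of BiP thus moved the other way from BiP itself in the same samples. From day 6 to day 9, Dnajb9 was lower too (-0.54), while Hsp90b1 (0.99) and Pdia4 (0.99) were higher, as was Atf4 (0.63). In that comparison 3 of the 10 were higher and 2 lower, where 40.5% of all tested genes were called. After TMM rescaling 0 were higher and the 2 lower genes, Dnajb9 and Ddit3, were called. Without mouse 9 none was called, without mouse 12 or 13 there was 1, without mouse 8 there were 3, and without mouse 11 there were 7. The 40.5% is of the unscaled fit with all mice.

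In all, 5 of the 10 genes were higher and 2 lower in the mid-colon at day 9, where 43.4% of all tested genes were called. Their median difference was 0.71, beside 0.09 over all genes. The count rests on mice 12 and 13: without mouse 13 only Atf4 was called, without mouse 12 only Atf4 and Ddit3, and without mouse 11 there were 7, with Pdia4 in place of Ddit3. Without mouse 4 of day 0 there were also 7, but Hspa5 and Sdf2l1 lost their call and Ern2 and Creb3l1 were called lower. Hspa5 was not called without mouse 3 either, nor were Dnajb9 and Ddit3, and without mouse 1 or 2 Dnajb9 and Sdf2l1 were not. TMM rescaling also called Pdia4 higher (0.64, adjusted p = 0.0376) and Ern2 lower. The neutrophil marker sum at day 9 was 471 to 2225 TPM in the mid-colon and all 6 of its markers were higher, as were all 6 macrophage and all 6 proliferation markers. All 6 colonocyte markers, all 3 tested plasma cell markers and 4 of 6 fibroblast markers were lower. The part of these cells in the change was not tested.

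At the other days limma called none of the 10 in the mid-colon. At day 6 that was beside 14.9% of all genes tested, with 3 of the 10 at an unadjusted p under 0.05 (Ern2, Xbp1 and Creb3l1). Of all 11967 genes, 4243 reached that p. At days 14 and 20, 4.36% and 1.56% of all genes were called, with 0 of the 10 at an unadjusted p under 0.05 at either day. That p was reached by 2516 of all 12135 genes at day 14 and by 2505 of all 12116 at day 20. TMM rescaling called none at these 3 days.

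In the anus, Hspa5 and Sdf2l1 rose at day 6. Hspa5 stood at 258, 261 and 228 TPM in mice 8 to 10, above the 147 to 209 TPM of day 0 (0.61 ± 0.16, adjusted p = 0.0387). Sdf2l1 went from 9.28, 6.66, 7.87 and 9.44 TPM to 17.6, 14.5 and 14.2 TPM (0.83 ± 0.19, adjusted p = 0.0218). Hsp90b1 (182, 201 and 182 TPM) and Pdia4 (48.9, 50.4 and 46.1 TPM) also lay above all samples of day 0 and were not called (adjusted p = 0.0961 and 0.071). Xbp1 and Atf4 were the other genes called.

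That made 4 of 9 tested genes higher in the anus at day 6 and 0 lower, where 15% of all genes were called. The count was 0 in 5 of the 7 fits that leave out 1 mouse (without mouse 2, 3, 8, 9 or 10), 2 without mouse 1 and 5 without mouse 4, where Hsp90b1 and Pdia4 were gained and Atf4 was lost. With TMM rescaling 2 were called, Sdf2l1 and Pdia4, and Hspa5 (adjusted p = 0.0585), Xbp1 (0.0831) and Atf4 (0.127) were not. The 15% is of the unscaled fit with all mice, and TMM rescaling called 2506 of all 13730 genes. The goblet cell marker sum fell from 733 to 2527 TPM at day 0 to 45.6 to 96.2 TPM at day 6 in these samples. The sum of 6 skeletal muscle markers was 1781 to 17996 TPM at day 0 and 2081 to 9734 TPM at day 6, with none of its 5 tested markers called. All 6 colonocyte markers were lower, and 5 of 6 proliferation, 5 of 6 macrophage and 4 of 5 tested neutrophil markers were higher. The part of these cells in the values was not tested.

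At days 9, 14 and 20 limma called none of the 10 in the anus, beside 5.09%, 4.27% and 1.46% of all genes tested. At an unadjusted p under 0.05 there were 2, 4 and 5 of them. Of all genes, 2620 of 13591, 2217 of 13763 and 2643 of 13747 reached that p. Hspa5 at day 20, at 212, 315 and 242 TPM, lay above every sample of day 0 (0.64 ± 0.19, adjusted p = 0.137). Dnajb9 at day 20, at 17.2, 20.5 and 17.1 TPM, did so too (0.78 ± 0.24, adjusted p = 0.141). TMM rescaling called 1 gene lower, Creb3l1, at days 9 and 14, and none at day 20. With all days of the section in 1 fit, limma called Hspa5 (adjusted p = 0.0456), Dnajb9 (0.0164) and Xbp1 (0.017) higher at day 20. That fit called 1392 of all 13747 genes at day 20. At day 9 it called Xbp1 higher (adjusted p = 0.0306). Without mouse 4 of day 0, Hspa5 and Pdia4 were called at day 14.

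**Figure D2:**
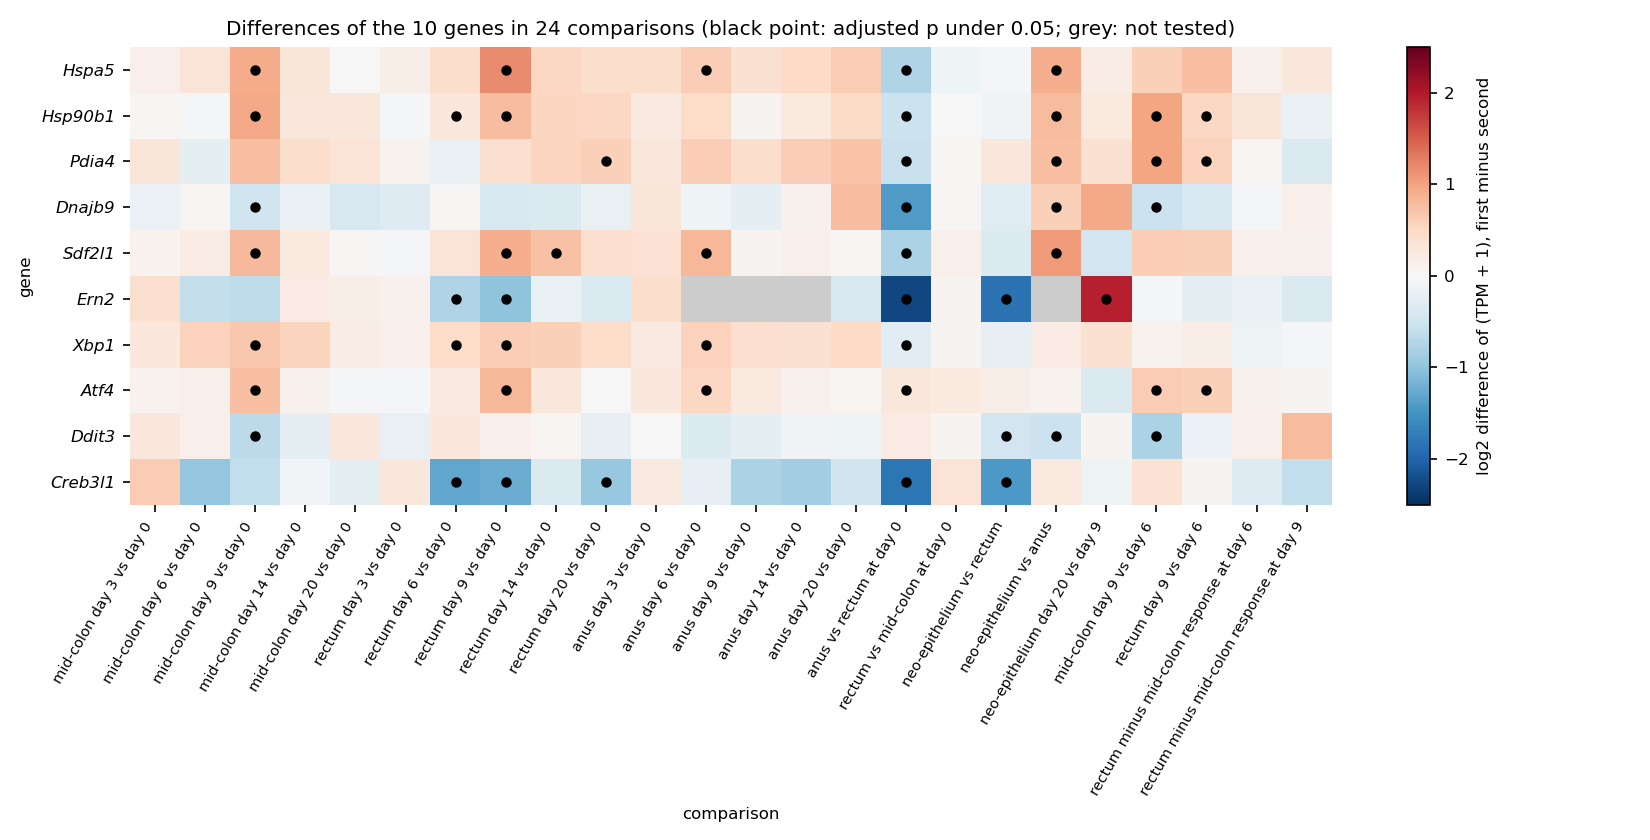
Log2 difference of TPM + 1 (colour, red higher and blue lower in the first-named group) of the 10 genes (rows) in the 24 comparisons (columns), with a black point where the adjusted p was under 0.05 and grey where the gene was too low to be tested. The 5 red points at day 9 in mid-colon and rectum belong to Hspa5, Hsp90b1, Sdf2l1, Xbp1 and Atf4 in both, and the blue points of Creb3l1 in the rectum are at days 6, 9 and 20.

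The level of Hspa5 is made of more than 1 annotated transcript. The coding transcript Hspa5-202 held 72.6% of it over all samples, and Hspa5-203, a fragment of 452 bases annotated as a retained intron, held 25.1%. Hspa5-202 rose in the rectum from 169 ± 6.83 TPM at day 0 to 409.8 ± 76.9 TPM at day 9 (mean ± SD, n = 4 and 3), with little spread at day 0. Hspa5-203 stood at 99.5 and 223 ± 119 TPM there and ranged from 0 to 315 TPM over all samples. When transcripts that do not code were left out, an alternative added after the data were seen, Hspa5 was also called in the rectum at day 6 (0.79, adjusted p = 0.00341) and at day 14 (0.84, adjusted p = 0.0317). In the same limma fits Hsp90b1 lost its call in the rectum at day 6 (0.22, adjusted p = 0.0544). Sdf2l1 lost its call in the mid-colon at day 9 (adjusted p = 0.0505).

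**Figure D3:**
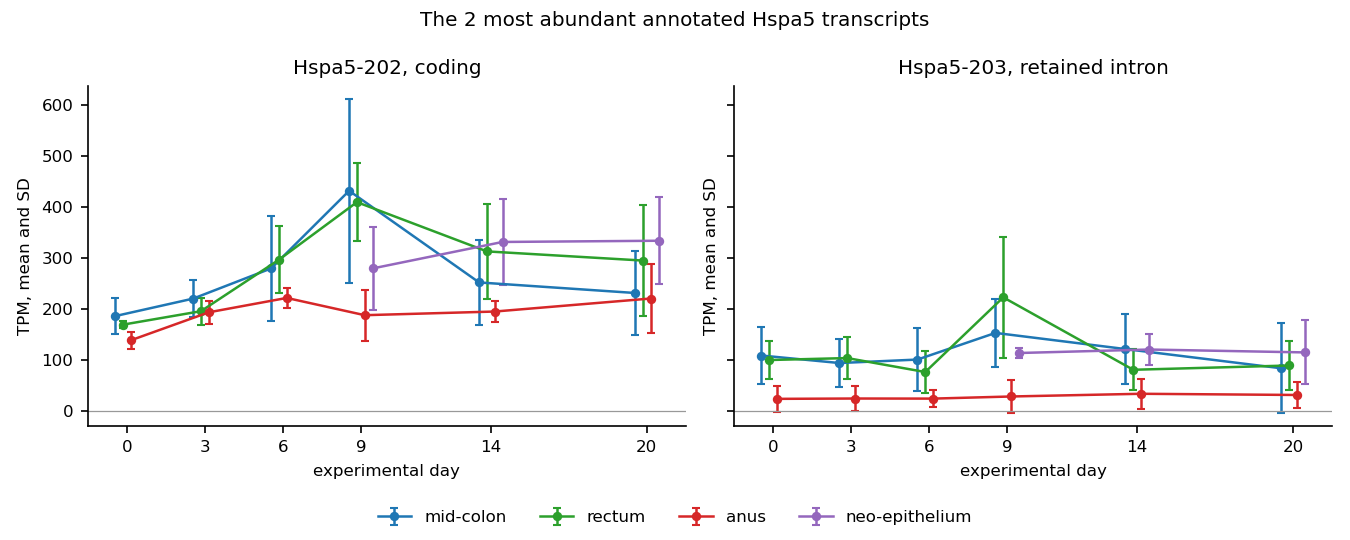
TPM (vertical axis, linear) of the coding transcript Hspa5-202 and the retained-intron transcript Hspa5-203 by experimental day (horizontal axis), as means with bars of 1 SD (n = 4 at day 0 and 3 later). Hspa5-202 in the rectum rises from 169 to 409.8 TPM between days 0 and 9, and Hspa5-203 has wide bars.

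Ern2 and Creb3l1, the 2 members best known from goblet cells, fell in the rectum at days 6 and 9. Ern2 encodes IRE1 beta, the form of the Ern1 sensor made in mucosal epithelium. In the rectum it stood at 13.3, 11.3, 11.6 and 11.1 TPM at day 0, at 6.29, 9.34 and 4.74 TPM at day 6 and at 6.52, 3.41 and 6.82 TPM at day 9. All samples of days 6 and 9 lay below all of day 0. The log2 differences were -0.76 ± 0.19 at day 6 (adjusted p = 0.0123) and -1.01 ± 0.21 at day 9 (adjusted p = 0.00361). With TMM rescaling the one at day 6 was not called (-0.49, adjusted p = 0.058).

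Creb3l1 encodes OASIS, a transcription factor held in the ER membrane until it is cut, which takes part in the maturation of goblet cells. It stood in the rectum at 38.2, 24.2, 27.6 and 23.4 TPM at day 0, at 11.5, 13 and 8.05 TPM at day 6 and at 13.4, 7.65 and 13.8 TPM at day 9. The groups did not overlap, and the differences were -1.30 ± 0.21 (adjusted p = 0.00192) and -1.23 ± 0.24 (adjusted p = 0.00232). Creb3l1 was still lower at day 20, at 12.6, 14.4 and 14.6 TPM (-0.95 ± 0.18, adjusted p = 0.0283). At day 14, at 20.2, 25.4 and 18.9 TPM, it overlapped with day 0 and was not called (adjusted p = 0.209).

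Goblet cell markers did not follow both genes down at day 6. The sum of 8 such markers in the rectum went from 11777 to 15266 TPM at day 0 up to 27824 to 31426 TPM at day 6, and all 8 were called higher. At day 9 the sum was 9642 to 13748 TPM, with 3 of 8 called lower. In the mid-colon 4 of 8 were higher at day 6 and 2 of 8 lower at day 9. At day 6 in the rectum, Ern2 and Creb3l1 thus fell in the samples in which these markers rose.

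In the mid-colon neither Ern2 nor Creb3l1 was called on TPM as deposited. Ern2 stood at 12.5, 12.7, 14.5 and 6.56 TPM at day 0 and at 7.84, 7.56 and 5.83 TPM at day 6, and Creb3l1 at 25.5, 30.3, 34.1 and 8.28 TPM and then at 13, 10.6 and 8.72 TPM. In both genes mouse 4 was the low sample of day 0. Without it both were called lower at day 6, Ern2 by -0.82 (adjusted p = 0.0056) and Creb3l1 by -1.40 (adjusted p = 0.00216). At day 9 Ern2 stood at 6.56, 6.77 and 7.1 TPM and Creb3l1 at 11, 18.3 and 13.5 TPM. Without mouse 4 both were called lower there too (adjusted p = 0.00162 and 0.00364), and TMM rescaling called Ern2 (-0.74, adjusted p = 0.00548) but not Creb3l1.

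In the anus Ern2 was at 0.8294, 1.08 and 0.845 TPM in mice 1 to 3 and at 5.85 TPM in mouse 4 at day 0. It was 0.0173, 0.0745 and 0 TPM at day 6, and it is listed at 0 in all 3 mice at day 9. The goblet cell marker sum of the anus was then 36.3 to 70.4 TPM. At days 6, 9 and 14 Ern2 was too low to be tested there. At day 20 it was at 3.98 TPM in mouse 17 and at 0.401 and 0.19 TPM in mice 18 and 19. In mouse 17 the goblet cell marker sum was 3068 TPM, and in the other 2 mice 140.2 and 471 TPM.

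**Figure D4:**
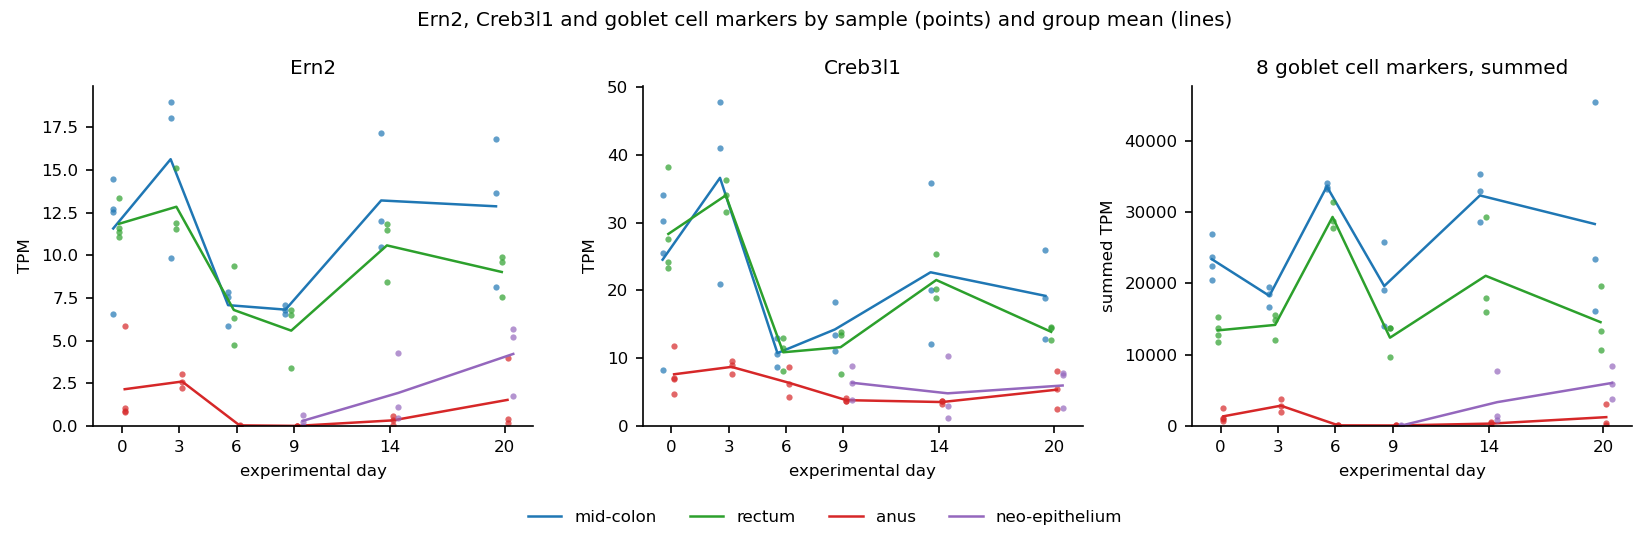
TPM of Ern2, TPM of Creb3l1 and the summed TPM of 8 goblet cell markers (vertical axes, linear, from 0) by experimental day (horizontal axis), with 1 point per sample and lines through the group means. In the rectum Ern2 and Creb3l1 lie below their day 0 range at day 6, when the marker sum is 27824 to 31426 TPM, above its day 0 range.

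Xbp1 RNA was called higher than at day 0 in mid-colon, rectum and anus. Xbp1 encodes the transcription factor that Ern1 and Ern2 switch on by splicing its RNA. In the rectum it rose from 96.3, 90.2, 96.6 and 93 TPM to 106, 124 and 163 TPM at day 6 (0.45 ± 0.14, adjusted p = 0.0258) and to 134, 130.2 and 173 TPM at day 9 (0.61 ± 0.12, adjusted p = 0.00254). In the mid-colon it stood at 98.5, 94.9, 102 and 68.2 TPM at day 0 and at 113, 145 and 181 TPM at day 9 (0.67 ± 0.20, adjusted p = 0.0205). In the anus it went from 78.6, 72.3, 72.8 and 85.9 TPM to 119, 107 and 118 TPM at day 6 (0.57 ± 0.13, adjusted p = 0.0245). None of these groups overlapped with their day 0. Of these calls, only that in the rectum at day 9 was kept whichever mouse was left out. The call in the anus was lost after TMM rescaling (limma adjusted p = 0.0831). That in the rectum at day 6 was lost with all days of the section in 1 fit (limma adjusted p = 0.0632). The transcript Xbp1-201 held 95.3% of the gene's level. The annotated transcripts were not examined for the form spliced by Ern1 or Ern2, so splicing was not measured here.

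Atf4 encodes the transcription factor of the integrated stress response, which turns on genes of amino acid synthesis. In the rectum at day 9 it stood at 143, 127 and 154 TPM, against 85.1, 78.3, 78.4 and 75 TPM at day 0 (0.83 ± 0.10, adjusted p = 2.33e-04). In the mid-colon it stood at 107, 133 and 100.2 TPM against 66.2, 69.1, 70.2 and 61.1 TPM (0.75 ± 0.15, adjusted p = 0.00268). It was the 1 gene of the 10 that kept its call in the mid-colon at day 9 whichever mouse was left out. In the anus it stood at 129, 141 and 149.9 TPM at day 6 against 89.2, 105, 100.1 and 92.6 TPM (0.53 ± 0.13, adjusted p = 0.0325). At day 14 it was 92.7, 106 and 90.02 TPM in the rectum and was not called (adjusted p = 0.0826).

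Ddit3 encodes CHOP, a transcription factor that Atf4 can turn on and that takes part in cell death under lasting ER stress. Fitted on TPM as deposited, it was called higher in none of the 24 comparisons, while TMM rescaling called it higher in the rectum at day 6 (0.56, adjusted p = 0.0239) and in the anus against the rectum at day 0. In the mid-colon at day 9 it fell to 9.75, 13.2 and 8.66 TPM from 14.3, 16, 18.4 and 19.8 TPM, without overlap (-0.66 ± 0.20, adjusted p = 0.0207). From day 6 to day 9 it was lower there as well (-0.80, adjusted p = 0.0121). In the rectum at day 9 it stood at 18.3, 17.4 and 23.5 TPM, overlapping the 15.6 to 19.9 TPM of day 0 (0.13 ± 0.14, adjusted p = 0.48).

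Whether the rectum and the mid-colon responded differently was tested as the difference of their differences from day 0. At day 6 limma called 0 of the 10 genes and 0% of all genes. An unadjusted p under 0.05 was reached by 0 of the 10 and by 730 of all 12986 genes. That is near the share of 0.05 that this threshold passes where nothing differs. At day 9 limma called 0 of the 10 and 6.55% of all genes. An unadjusted p under 0.05 was then reached by 2469 of all 13520 genes and by 1 of the 10. That gene was Ddit3, whose rectal difference exceeded that of the mid-colon by 0.79 ± 0.24 (adjusted p = 0.0627), and TMM rescaling, coding transcripts alone and leaving out mouse 12 each called it. For the other 9 genes the difference at day 9 lay between -0.62 and 0.26 with standard errors of 0.17 to 0.54, so differences of this size could not be resolved. The decline of Ddit3 in the mid-colon is therefore not shown to be particular to that section.

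All 5 chaperones were higher in the squamous neo-epithelium than in the anus. Hspa5 in it stood at 321, 406 and 478 TPM at day 9, at 397, 471 and 514 TPM at day 14 and at 380.1, 596 and 399 TPM at day 20. The anus of the same days lay between 157 and 315 TPM, below every sample of neo-epithelium. Group means of the coding transcript Hspa5-202 were 279 to 334 TPM in the neo-epithelium and 188 to 220 TPM in the anus. Those of the retained-intron transcript Hspa5-203 were 113 to 120 and 27.8 to 33.1 TPM. Over these 3 days the difference was 0.91 ± 0.13 (n = 9 and 9, adjusted p = 2.13e-05), and adding mouse as a replicate block gave an adjusted p of 1.14e-06. Sdf2l1 differed by 1.07 ± 0.17, Hsp90b1 by 0.79, Pdia4 by 0.75 and Dnajb9 by 0.60. Ddit3 was lower, at 9.55 to 14.4 TPM (-0.54 ± 0.09, adjusted p = 6.83e-05).

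Against the anus, 5 of 9 tested genes were higher in the neo-epithelium and 1 was lower, where 59.8% of all tested genes were called. The same 6 were called in all 9 fits that leave out the samples of 1 mouse. Xbp1 (0.20, adjusted p = 0.0702), Atf4 (0.09, adjusted p = 0.191) and Creb3l1 (0.24, adjusted p = 0.473) were not called. Cell markers moved with this comparison. All 6 proliferation, 6 of 8 goblet cell, 5 of 6 neutrophil and all 3 tested plasma cell markers were higher in the neo-epithelium, and 4 of 6 fibroblast and all 5 tested skeletal muscle markers were lower. The skeletal muscle sum was 2.63 to 12.3 TPM in the neo-epithelium and 2745 to 11038 TPM in the anus of the same days. Their part in the difference was not tested.

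Against the rectum of the same days, 0 of the 10 genes were higher and 3 lower, where 42.9% of all tested genes were called. Ern2 was lower by -1.85 ± 0.27 (adjusted p = 3.62e-05), Creb3l1 by -1.43 ± 0.30 (adjusted p = 9.91e-04) and Ddit3 by -0.48 ± 0.11 (adjusted p = 0.00257). For the 5 chaperones the differences lay between -0.34 and 0.28 with standard errors of 0.14 to 0.20, and none was called. With the mouse as a replicate block, Pdia4 was called higher (adjusted p = 0.0282). All 8 goblet cell and all 6 colonocyte markers were lower, and all 6 squamous and 5 of 6 fibroblast markers higher, in the neo-epithelium than in the rectum.

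Between days 9 and 20 of the neo-epithelium, Ern2 rose from 0.629, 0 and 0.252 TPM to 5.21, 1.76 and 5.67 TPM (1.94 ± 0.38, adjusted p = 0.0148), where 26.2% of all tested genes were called. It was the 1 gene of the 10 called, and it was not called without mouse 12, 13 or 17. The goblet cell marker sum went from 14 to 106 TPM up to 3809 to 8391 TPM over the same days, with 7 of its 8 markers higher. All 6 colonocyte and all 3 tested plasma cell markers were also higher, and 5 of 6 fibroblast, macrophage and proliferation markers each were lower. At day 14 the sample of mouse 14 was high in both Ern2, at 4.26 TPM, and the marker sum, at 7712 TPM. The other 2 mice of that day had 0.435 and 1.11 TPM of Ern2 and marker sums of 847 and 1426 TPM. Atf4 went from 129.8, 129.95 and 141 TPM at day 9 to 101, 104 and 107 TPM at day 20, and Dnajb9 from 10.1, 12 and 17.6 TPM to 37.5, 24.1 and 18.7 TPM. Neither group overlapped, and neither gene was called (adjusted p = 0.0584 and 0.0613). Some alternatives did call them. TMM rescaling called Dnajb9 higher (1.10, adjusted p = 0.0474), and limma with no filter called Atf4 lower (adjusted p = 0.044). With all days of the section in 1 fit, limma called both (adjusted p = 0.0362 for Atf4 and 0.0344 for Dnajb9).

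Ranked over the 21 groups, Hspa5 was highest in the rectum at day 9 (646 ± 196 TPM) and the mid-colon at day 9 (602 ± 250.2 TPM), which do not differ beyond their spread, and lowest in the anus at day 0 (164 ± 29.9 TPM). Pdia4 was highest in the neo-epithelium at day 14 (97.7 TPM) and lowest in the anus at day 0 (31.8 TPM). Atf4 led in the rectum at day 9 (141 ± 13.6 TPM) and the anus at day 6 (139.8 ± 10.4 TPM), whose samples overlap. Ern2 led in the mid-colon at day 3 (15.6 TPM) and Creb3l1 likewise (36.6 TPM). Ddit3 went from 10.5 ± 2.35 TPM in the mid-colon at day 9 to 21.8 TPM in the rectum at day 6.

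The genes whose levels ran most like those of the members were sought among 9301 genes with a mean of at least 5 TPM, as Pearson's r of log2(TPM + 1) over the 66 samples. These samples share mice and sections, and the r values describe them. Ern2 was most like Atoh1 (0.985), the master transcription factor of secretory cells, Galnt5 (0.982) and Lrrc31 (0.976). Hspa5 was most like Gmppb (0.895), Hsp90b1 (0.885) and Sdf2l1 (0.879), so that 2 of its 3 nearest genes were other members. Xbp1 was most like Hspa5 (0.817) and Manf (0.812), and Creb3l1 most like Fam174b (0.926). Ddit3 had no close companion, with Gabarap at 0.606 as the nearest. Within groups, as deviations from the group means, Hspa5 ran with Sdf2l1 (r = 0.835), Hsp90b1 with Pdia4 (0.832) and Ern2 with Creb3l1 (0.814), while Hspa5 and Dnajb9 did not run together (-0.085).

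Beyond the 10 members, 67 other genes of ER stress and secretion were looked for by symbol, and the 64 found were grouped by role. Their counts stand beside those of all tested genes, and a share near that of all genes is no result about the list. In the rectum at day 9, 31 of 62 tested were higher and 6 lower, beside 4404 higher and 2624 lower of all 13140 genes. TMM rescaling gave 25 and 13, where it called 7578 of all genes, a share near that of the list. The median difference was 0.34, beside 0.13 over all genes. Of the factors for entry into the secretory pathway, which carry new proteins into the ER, 8 of 9 were higher and 0 lower (6 and 0 with TMM). Of the integrated stress response genes, 9 of 11 were higher and 0 lower on both scales. Cebpb, a transcription factor of inflammation that pairs with Atf4, stood at 4.69 ± 0.97 TPM at day 0 and at 69.4 ± 26.9 TPM at day 9. Psat1, an enzyme of serine synthesis, went from 6.27 to 53.8 TPM, and Slc7a11, a cystine transporter, from 0.70 to 16.3 TPM.

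The lumenal chaperones of that list were higher in 7 of 10 and lower in 1 in the rectum at day 9, and the folding enzymes in 6 and 1 of 13 (6 and 1, and 4 and 2, with TMM). Of the genes of ER-associated degradation, which remove misfolded proteins, 1 of 9 was higher and 2 were lower (0 and 5 with TMM). The differences between these roles were not tested. Os9, a lectin of this route, fell from 43.01 to 28.6 TPM. Agr2, a disulfide isomerase that goblet cells use to fold mucin, fell from 1111 to 529 TPM. Creb3l4, a relative of Creb3l1, fell from 11.7 to 4.17 TPM. Of the sensors and the proteases that cut them, 0 of 6 were higher and 1 was lower, or 4 lower with TMM.

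At day 6 in the rectum, 11 of 61 of these genes were higher and 13 lower, beside 1455 higher and 4690 lower of all 12615 genes. TMM rescaling gave 27 and 4, where it called 4537 of all genes. The sensors and proteases were lower in 5 of 6, and in 3 of 6 after TMM rescaling. Eif2ak3, the PERK sensor, stood at 16.1 TPM at day 0 and at 8.24 TPM at day 6. Ern1 went from 5.12 to 3.14 TPM and was not called after rescaling (adjusted p = 0.066). Manf, a protein secreted under ER stress, rose from 89.9 to 156 TPM. At day 14 there were 14 of 61 higher and 1 lower (25 and 2 with TMM), where 15.8% of all genes were called. At day 20 there were 3 and 1 of 60 (8 and 2), where 7.68% were. With TMM, 2580 of all 12749 genes were called at day 14 and 1640 of all 12677 at day 20.

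In the mid-colon at day 9, 21 of 61 were higher and 6 lower, and 22 and 10 after TMM rescaling. These 27 of 61 are close to the 43.4% called among all genes. TMM rescaling called 6339 of all 12323 genes. Secretory entry was higher in 7 of 9 on both scales, and ER-associated degradation in 0 of 9 with 2 lower (3 with TMM). Psat1 rose from 3.08 to 50.9 TPM, Asns, the asparagine synthetase and a known target of Atf4, from 10.9 to 81.9 TPM, and Phgdh, which starts serine synthesis, from 3.93 to 25.9 TPM. Among the called genes of the list with a mean of at least 5 TPM in a group, Edem1, Os9 and Sdf2 were the 3 largest falls. At day 6, 3 of 60 were higher and 1 lower (9 and 1 with TMM), where 14.9% of all genes were called. With TMM, 1931 of all 11967 genes were called.

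In the anus, 13 of 62 were higher and 2 lower at day 6 (12 and 3 with TMM), where 15% of all genes were called. With TMM, 2506 of all 13730 genes were called. Asns rose from 17.7 to 56.8 TPM and Psat1 from 46.9 to 134.9 TPM, while Agr2 fell from 185 ± 112 to 3.07 TPM and Chac1, a glutathione-degrading enzyme under Atf4 and Ddit3, from 13.96 to 3.16 TPM. In uninjured mice the anus already stood above the rectum in 11 of 12 integrated stress response genes and below it in 1, where 3413 of all 13158 genes were higher and 4523 lower. Chac1 stood at 13.96 against 0.196 TPM. Atf4 itself differed there by 0.28. Between days 9 and 20 of the neo-epithelium 7 of 12 of these genes were lower and 0 higher (6 and 0 with TMM), where 2124 of all 13186 genes were lower, among them Phgdh (81.7 to 20.04 TPM), Shmt2 and Asns (69.9 to 32.7 TPM). Against the anus, the neo-epithelium was higher in 38 of 62 of all roles and lower in 7 (26 and 10 with TMM), where 5311 of all 13256 genes were higher and 2610 lower.

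**Figure D5:**
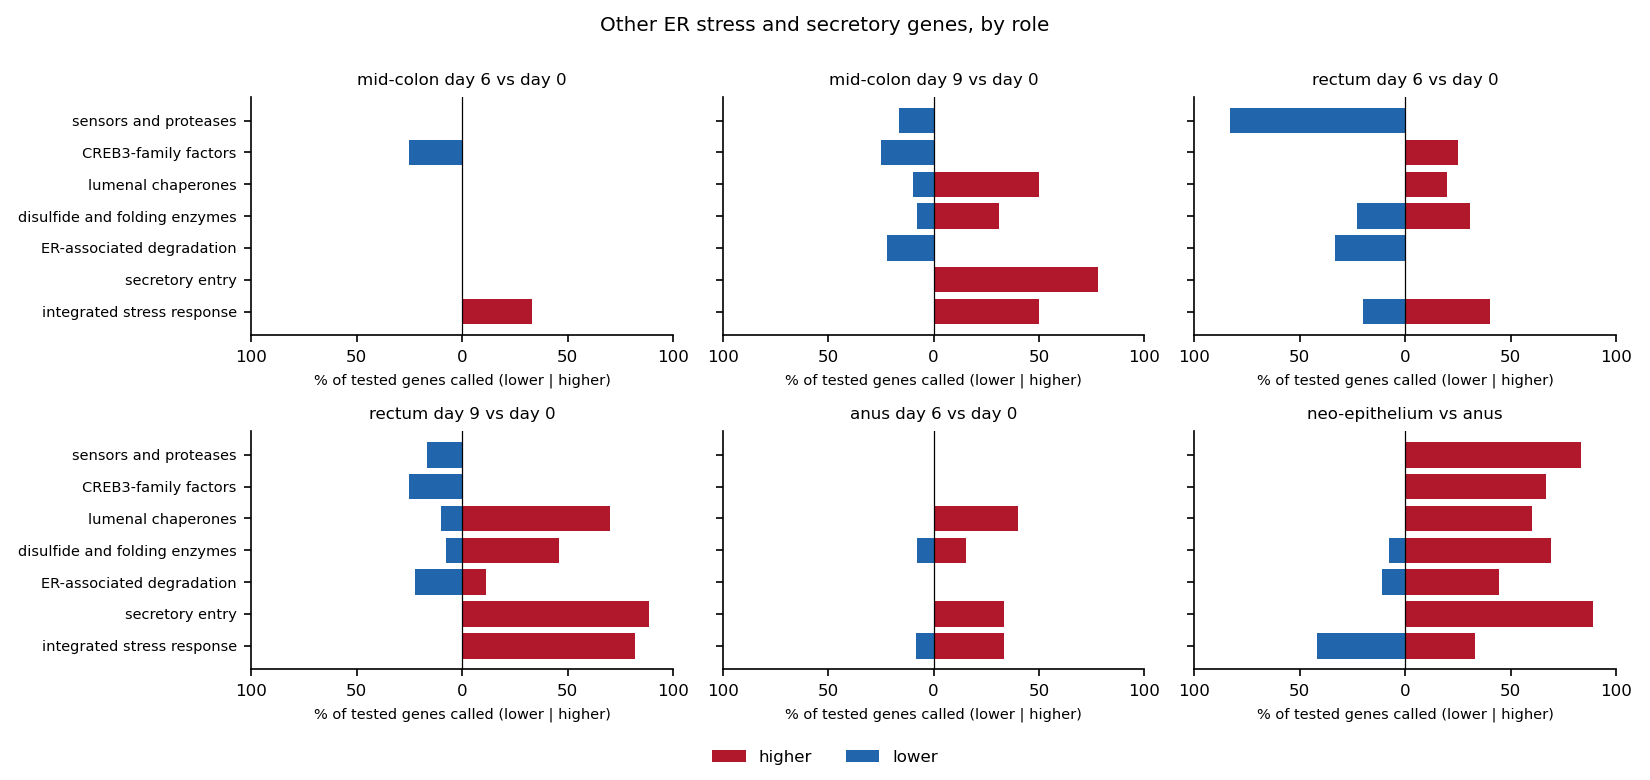
Share of the tested genes of each role (rows) called lower (blue, to the left) or higher (red, to the right) in 6 comparisons, in percent of the genes of that role tested. In the rectum at day 9, 8 of 9 secretory entry genes and 9 of 11 integrated stress response genes are higher, and the sensors show 1 lower and none higher (4 lower with TMM).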

How the data were processed

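Per the labels' protocols, mRNA of the tissue left after removal of the muscle layer was made into stranded libraries and read from one end. Per the submitters' processing notes, CASAVA, kallisto and build mm10 were used; versions and index are not given in the sources used here. The deposited values are a TPM signal for each transcript. Rows repeated for several gene identifiers (1318) were dropped, after which each sample summed to 1000000, and TPM were summed per gene. No counts are held, so depth is unknown.

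Here, limma 3.58.1 in R 4.3.3 was fitted with a mean-variance trend to log2(TPM + 1), for genes that reached 1 TPM in at least the number of samples of the smaller group, with Benjamini-Hochberg adjustment over all of them, and checked on simulated data. Each fit held the compared groups. Neo-epithelium was compared with rectum and anus over days 9, 14 and 20 with the day as a covariate. Scripts ran in Python 3.11.15.

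The alternatives were TMM factors, a pseudocount of 0.1, no filter, a filter of 5 TPM, the mouse as a replicate block, all days of a section in 1 fit and each mouse left out; coding transcripts alone were added after the data were seen. Sections share mice by their labels, and samples of the same mouse deviated together with a mean r of 0.054 (anus and rectum, day 0) to 0.275 (neo-epithelium and rectum).

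The 10 genes, the role and marker lists and the tests were chosen with earlier results of these data known. All 10 genes are named. Of the other ER stress genes, those named are at most the 3 called genes that rose most and the 3 that fell most in a comparison, at a mean of 5 TPM or more in a group, and of like genes the 3 with the highest r. The single-cell samples of the study were not used here.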

Additional observations from a re-analysis of the deposited data

Results flagged for a closer look

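In 30 groups of 4 uninjured mice (10 genes in 3 sections), 3 samples lay far from the other 3 by Dixon's test, where chance alone gives about 1 in 20 groups, and all 3 came from mouse 4. Its anal sample held 208.9 TPM of Hspa5, against 146.8 to 150.9 TPM in the others. Its mid-colon held 195.6 TPM of Hspa5, against 330.8 to 350.8 TPM. Its anal sample held 5.85 TPM of Ern2, against 0.8294 to 1.08 TPM. The goblet cell marker sum of that anal sample was 2527 TPM, against 733 to 1161 TPM. What set these samples apart was not tested.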

How the results depend on the processing

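No call turned its direction under any alternative. Of the 52 called pairs of gene and comparison, 41 kept their call with TMM factors and 11 lost it, 50 and 2 did with a pseudocount of 0.1, 43 and 9 with no filter, and 50 and 2 with coding transcripts alone. In the mid-colon at day 9 these alternatives gave 5 (no filter) to 9 (TMM factors) called members in place of 7. The counts of called members that moved by more than 1.5 times follow. With TMM factors they were 7 (rectum day 6), 5 (rectum day 14), 2 (anus day 6), 1 (anus day 9), 1 (anus day 14), 2 (neo-epithelium day 20 against 9), 2 (mid-colon day 9 against 6), 1 (rectum day 9 against 6) and 1 (rectum minus mid-colon, day 9). With all days of a section in 1 fit they were 2 (rectum day 6), 3 (rectum day 14), 1 (anus day 9), 3 (anus day 20) and 3 (neo-epithelium day 20 against 9). With no filter they were 0 (rectum days 14 and 20), 2 (neo-epithelium) and 3 (mid-colon day 9 against 6). Coding transcripts alone gave 2 at day 14 in the rectum and 1 for rectum minus mid-colon at day 9, the pseudocount of 0.1 gave 1 at day 20 in the rectum, and the filter of 5 TPM gave 0 in the neo-epithelium, where Ern2 is then not tested. With TMM, Dnajb9 was called lower in the rectum at day 9. The number of all genes called also changed with the setting and is not given beside these counts. The causes were not tested.

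With the mouse as a replicate block, 16 called pairs of the comparisons between sections kept their call and 2 lost it, Xbp1 and Atf4 of anus against rectum at day 0 (7 called, in place of 9), and Pdia4 of neo-epithelium against rectum gained one (4 called, in place of 3). The block changed no other call of a member.

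Leaving out 1 mouse at a time gave 0 to 2 called members in the mid-colon at day 6, 1 to 7 at day 9 and 0 to 1 at day 14. In the rectum the range was 2 to 5 at day 6, 0 to 6 at day 14 and 0 to 6 at day 20. In the anus it was 0 to 5 at day 6 and 0 to 2 at day 14. It was 0 to 2 for neo-epithelium day 20 against 9, 0 to 7 for mid-colon day 9 against 6, 0 to 4 for rectum day 9 against 6 and 0 to 1 for rectum minus mid-colon at day 9. The share of all genes called in these fits is not given here.

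The number of mice limits the precision, and the depth is unknown. Ern2 below 1 TPM in the anus is too low for a direction. TPM is a share, so a rise of other transcripts lowers all others.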
